A study of Rattus norvegicus with 3 samples.

Results

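Integrins, cadherins and laminins are the proteins by which a tendon cell holds on to matrix, to its neighbours and to basement membrane. Here they are the probe sets whose single gene symbol on the array platform is that of an integrin alpha or beta chain, the integrin beta-like gene *Itgbl1*, a numbered cadherin or a laminin chain. The symbols alone decided which probe sets belong, but the families were chosen with earlier results of these data known. There were 73 such probe sets (sets of short probes for a transcript) of 31042 on the array, and they stood for 49 of 14217 genes with a symbol. They comprised 15 genes of integrin alpha chains (24 probe sets), 7 of integrin beta chains with *Itgbl1* beside them (11 probe sets), 16 of cadherins (24) and 10 of laminins (14). The cells were tendon stem/progenitor cells (TSPCs) grown from the Achilles tendon of Sprague-Dawley rats at post-natal day 1, 7 and 56 (TSPCs-1d, TSPCs-7d and TSPCs-56d), without any treatment. Tissue of at least 2 animals was mixed for each culture, the cells grew out of tissue pieces in low-glucose medium with fetal bovine serum, were plated sparsely to form colonies that were kept as a polyclonal mix, and were used at passage 2. Each age had 1 Affymetrix rat genome array, so that no difference below has a replicate check and no test was made. The study asked how TSPCs differ between these stages, and the values here are for cells on plastic and not for the tendon itself.

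An integrin is a pair of an alpha and a beta chain that spans the membrane, binds matrix outside the cell and couples it through talin, kindlin and vinculin to actin inside. The alpha chain largely sets the ligand: some chains bind collagen, some laminin, some the RGD motif of fibronectin and vitronectin, and some are found on leukocytes. Cadherins bind the same cadherin on a neighbouring cell in the presence of calcium, and the classical ones are tied to actin by catenins. Laminins are cross-shaped trimers of an alpha, a beta and a gamma chain, and they form the sheet on which basement membranes are built. In tendon, integrins carry the load between cell and collagen, and cadherin-11 and N-cadherin join the cells of the developing fibre bundles.

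The deposited values are signals on a linear intensity scale, with medians of 107 (TSPCs-1d), 108 (TSPCs-7d) and 114 (the TSPCs-56d array) over all probe sets. A ratio here is the signal of the later culture over that of the earlier one. Where 3 signals stand together, they are in order of age (TSPCs-1d first, TSPCs-56d last). The cutoff was 2-fold, as in the methods. A signal was taken as dim if it was under 48.9, which is the 25th percentile of the signals on the 3 arrays. As a guide to the error of a single probe set, the pair of log2 ratios was taken from 1714 genes that have exactly 2 probe sets with a mean signal over the array's median. The ratios differed by a median of 0.14, 0.14 and 0.17 (TSPCs-7d over TSPCs-1d, TSPCs-56d over TSPCs-7d and TSPCs-56d over TSPCs-1d), and 10% of the genes differed by more than 0.39, 0.44 and 0.53. This spread lies within an array and leaves out the spread between cultures. All 13 measured markers of tendon cells and their fibroblast lineage were above the dim level in the 3 cultures, among them the tendon transcription factor gene *Scx* with signals of 2255, 2578 and 2569. *Tnmd*, a membrane protein of mature tendon cells, had 543, 351 and 158. Of the marker lists of other cells, 4 of 13 leukocyte, 5 of 10 endothelial and 4 of 9 epithelial genes were dim in all cultures, among them the defining genes *Ptprc*, *Pecam1* and *Epcam* with signals of at most 34.3. Another 9, 5 and 4 genes of these lists were dim in no culture, for instance *Aif1* of macrophages (209, 188 and 267), *Egfl7* of endothelium (323, 337 and 391) and *Cldn3* of epithelium (179, 211 and 242). Their part in the values below was not tested.

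A few members stood far apart between the cultures while most did not. *Itgbl1* was bright only in the older cultures, *Itgb3* and the laminin gene *Lama4* were highest in TSPCs-56d, the laminin gene *Lamb1* was lowest in TSPCs-7d, and the cadherin genes *Cdh2* and *Cdh22* were lowest in TSPCs-56d. In TSPCs-7d over TSPCs-1d, 1 of the 73 probe sets was more than 2-fold higher, beside 1.36% of all probe sets, and 0 were lower, beside 0.989%. In TSPCs-56d over TSPCs-7d, 4 were higher (5.48%), beside 1.31% of all probe sets, and 3 were lower (4.11%), beside 1.68%. In TSPCs-56d over TSPCs-1d, 3 were higher (4.11%), beside 1.52%, and 4 were lower (5.48%), beside 1.8%. The members were thus near the share of all probe sets in the first comparison and above it in both comparisons of TSPCs-56d, which rest on the same TSPCs-56d array. Any pair of these comparisons shares 1 array, so they are not independent of each other. In total, 9 probe sets of 8 genes passed the cutoff in some comparison, and 41 genes had none that did. *Cdh6* and *Cdh23* passed it on dim signals alone (34.3, 29.1 and 16.0, and 22.9, 12.2 and 26.0, in order of age), so that no difference can be read from them. Both genes are still part of the counts and shares above, and *Cdh2* enters each lower count of TSPCs-56d by more than 1 probe set. Just outside the cutoff lay a weaker probe set of *Itga6*, whose TSPCs-7d signal of 109 was 1.998-fold lower than the 218 of TSPCs-1d.

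**Figure D1:**
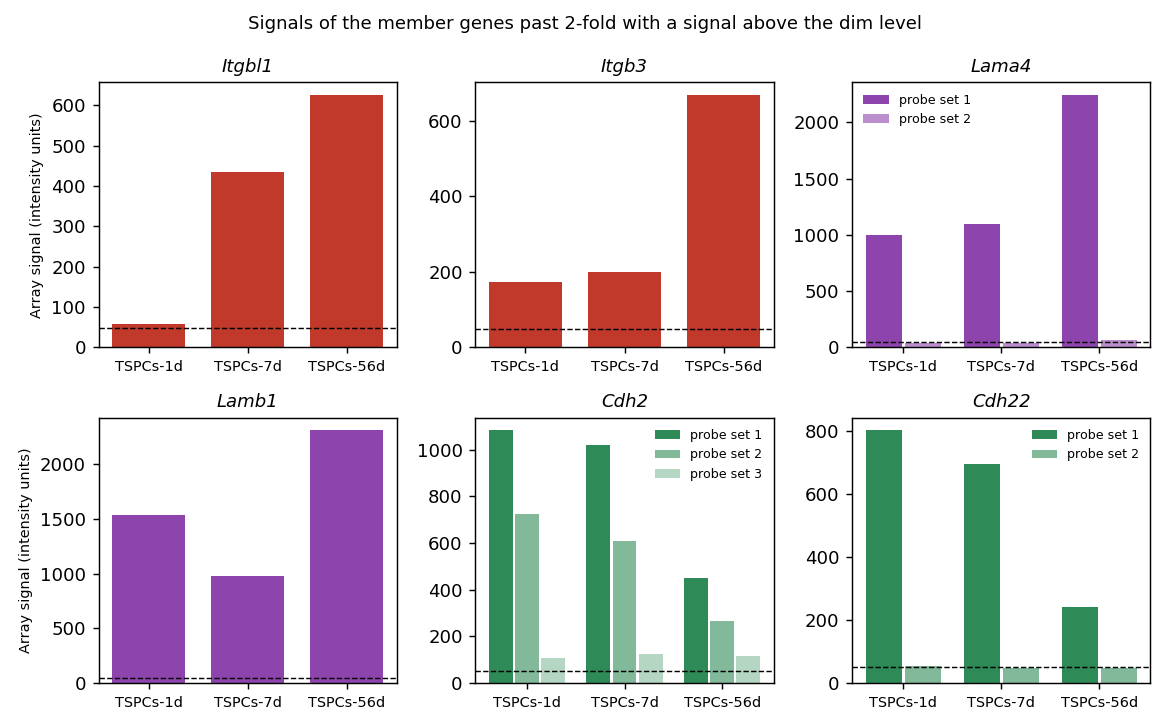
Array signal (intensity units, linear axes from 0) of the 6 member genes past 2-fold with a signal above the dim level, with 1 bar for each probe set and culture (TSPCs-1d left, TSPCs-7d middle, TSPCs-56d right) and paler bars for weaker probe sets. The dashed line marks the dim level of 48.9. *Itgbl1* stands at 626 in TSPCs-56d, against 57.6 in TSPCs-1d, and the brighter probe set of *Cdh22* at 241 in TSPCs-56d, against 801 in TSPCs-1d.

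*Itgbl1* encodes a secreted protein built of the cysteine-rich repeats of integrin beta chains, without the membrane part and the ligand head. The signal was 57.6 in the TSPCs-1d culture, 434 in that of TSPCs-7d and 626 in that of TSPCs-56d, so the TSPCs-1d culture was close to the dim level and both older ones were well above it. The ratio was 7.54 for TSPCs-7d over TSPCs-1d and 10.9 for TSPCs-56d over TSPCs-1d, while TSPCs-56d over TSPCs-7d was 1.44. With signals under the median of 110.1 raised to it, the first of these was 3.94 and the second 5.69. *Itgb3* encodes the beta3 chain, which joins the alphaV chain to form a receptor for vitronectin and osteopontin, and on platelets joins the alphaIIb chain. Its signals were 173 (TSPCs-1d), 201 (TSPCs-7d) and 669 (TSPCs-56d). TSPCs-56d therefore stood 3.33-fold above TSPCs-7d and 3.87-fold above TSPCs-1d, whereas the younger cultures differed by a ratio of 1.16. Both genes have 1 probe set on the array. Markers of platelets, another known site of beta3, had signals between 11.3 and 92.9 in 4 measured genes, summed to 207 in the TSPCs-1d culture, 215 in that of TSPCs-7d and 226 in that of TSPCs-56d, with 0 of them past the cutoff. The alphaIIb gene *Itga2b* had 122, 103 and 137.

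*Lama4* encodes the alpha4 chain, found in laminins of blood vessel walls, fat and muscle. Its brighter probe set had signals of 999 in the TSPCs-1d culture, 1099 in that of TSPCs-7d and 2245 in that of TSPCs-56d. The ratio was 2.04 for TSPCs-56d over TSPCs-7d and 2.25 for TSPCs-56d over TSPCs-1d, and the younger cultures differed by 1.10. The call against TSPCs-7d lies at the cutoff and is lost, at a log2 ratio of 0.95, once each array is divided by its median. Its weaker probe set was dim in both younger cultures (40.4 and 43.8) and had 65.8 in TSPCs-56d. *Lamb1*, the beta1 chain with which alpha4 can assemble, had 1536, 982 and 2311. It was lowest in TSPCs-7d, with a ratio of 0.64 over TSPCs-1d, and the TSPCs-56d signal was 2.35-fold above that of TSPCs-7d, with a log2 ratio of 0.59 over TSPCs-1d. Endothelial markers, cells in which the alpha4 chain is known, summed to 911 in the TSPCs-1d culture, 916 in that of TSPCs-7d and 1086 in that of TSPCs-56d over 10 genes, of which 5 were dim in all cultures and 0 passed the cutoff. Their part in the laminin values was not tested.

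*Cdh2* encodes N-cadherin, the cadherin of mesenchymal, neural and muscle cells. Its brightest probe set had signals of 1083 in the TSPCs-1d culture, 1022 in that of TSPCs-7d and 450.4 in that of TSPCs-56d, and the next one had 723, 607 and 266. TSPCs-56d was 2.27-fold and 2.28-fold lower than TSPCs-7d by these probe sets, and 2.40-fold and 2.72-fold lower than TSPCs-1d. The third and weakest probe set did not follow them, with 107, 125 and 116. *Cdh22* encodes a cadherin first described in rat pituitary and brain, and its brighter probe set had 801, 694 and 241. It was 2.89-fold lower in TSPCs-56d than in TSPCs-7d and 3.33-fold lower than in TSPCs-1d. Its other probe set lay at the dim level in all cultures (53.8, 47.6 and 46.4), so this gene rests on 1 probe set. In both cadherin genes the younger cultures were close to each other, with ratios of TSPCs-7d over TSPCs-1d between 0.84 and 0.94 for the 3 probe sets past the cutoff.

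Promoters are shown for 4 of the 6 genes past the cutoff on signals above the dim level, to give the sequence upstream of the genes that these results turn on. *Cdh2* and *Itgb3* are named only, so that *Cdh22* is the single gene lower in TSPCs-56d among them. A promoter was found for 34 of the 49 genes by gene ID in the RefSeq sequences of rat assembly GRCr8. The 250 bases before the annotated start are printed 5′ to 3′ on the strand of the gene, at chr15:107186542-107186791 (plus strand) for *Itgbl1*, chr20:43946648-43946897 (plus strand) for *Lama4*, chr6:53562846-53563095 (plus strand) for *Lamb1* and chr3:174389893-174390142 (minus strand) for *Cdh22*. Capitals mark matches on either strand to the GC box GGGCGG, the TATA box TATAAA, the AP-1 site TGANTCA, the CCAAT box CCAAT or CACCTG, an E-box bound by Snail and Zeb factors. The capitals are GC boxes in *Itgbl1* and *Lamb1* and a TATA box in *Lama4*.
Itgbl1: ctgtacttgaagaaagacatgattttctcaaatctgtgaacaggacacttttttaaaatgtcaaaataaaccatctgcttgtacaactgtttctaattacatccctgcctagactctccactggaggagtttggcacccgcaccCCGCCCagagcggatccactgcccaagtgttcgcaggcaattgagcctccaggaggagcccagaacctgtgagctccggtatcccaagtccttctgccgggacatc
Lama4: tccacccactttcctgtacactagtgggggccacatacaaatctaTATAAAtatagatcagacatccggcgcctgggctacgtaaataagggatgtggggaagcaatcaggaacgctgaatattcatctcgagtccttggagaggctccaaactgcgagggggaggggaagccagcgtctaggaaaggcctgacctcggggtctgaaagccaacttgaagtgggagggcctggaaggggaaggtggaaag
Lamb1: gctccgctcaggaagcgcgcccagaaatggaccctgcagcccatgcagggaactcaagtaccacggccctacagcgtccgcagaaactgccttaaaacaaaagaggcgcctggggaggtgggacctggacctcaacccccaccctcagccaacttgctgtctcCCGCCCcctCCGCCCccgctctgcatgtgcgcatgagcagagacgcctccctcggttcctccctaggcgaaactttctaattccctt
Cdh22: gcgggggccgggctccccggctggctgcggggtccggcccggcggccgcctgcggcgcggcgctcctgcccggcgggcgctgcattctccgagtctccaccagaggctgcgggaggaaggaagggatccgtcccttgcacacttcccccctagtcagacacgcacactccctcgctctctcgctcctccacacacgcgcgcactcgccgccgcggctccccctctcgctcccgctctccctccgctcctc

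*Itgbl1* has 1 GC box, which begins 106 bases before the start, and *Lamb1* has 2, at 87 and 78 bases. The GC box occurs in 32.4% of 27457 promoters of this length and in 17 of the 34 found for members. The TATAAA of *Lama4* begins 205 bases before the start, and 13.1% of all promoters hold these letters somewhere in the window. *Cdh22* has none of the 5 motifs. It has 31 CpG dinucleotides, more than 95.1% of promoters, while *Itgbl1* has 6, *Lama4* has 8 and *Lamb1* has 14, beside a median of 6 over all promoters and of 9 over those of members. The other motifs occur in 6.36% (AP-1), 15.6% (CACCTG) and 34.3% (CCAAT) of all promoters, and no match is at hand for them in the 4 windows. A match or its absence describes these letters alone.

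Over the families as a whole, the middle of the ratios lay close to that of the array. The median log2 ratio of the 73 probe sets was -0.08 for TSPCs-7d over TSPCs-1d, beside 0.01 for all probe sets. It was 0.11 for TSPCs-56d over TSPCs-7d and 0.11 for TSPCs-56d over TSPCs-1d, beside 0.05 and 0.05. The spread was wider in the comparisons of TSPCs-56d, where 58 (79.5%) and 55 (75.3%) of the member probe sets lay within 1.5-fold, beside 90.1% and 88.6% of all probe sets. In TSPCs-7d over TSPCs-1d, 65 (89%) lay within it, beside 92.3%. Integrin alpha chains leaned to lower signals in TSPCs-7d, with 18 of 24 probe sets (75%) under a ratio of 1 against TSPCs-1d, beside 48.9% of all probe sets. Cadherins had a median of -0.20 in TSPCs-56d over TSPCs-1d, and laminins 0.17. Both medians include probe sets with dim signals. In the laminins these are all of alpha chains, whose median was 0.26 over 8 probe sets and 0.05 over the 5 with no dim signal. Of 12 member genes with more than 1 probe set above the dim level in every array, the probe sets lay on the same side of a ratio of 1 in 8, 9 and 8 genes in the comparisons in the order above. Their widest disagreement was 1.56 on the log2 scale, in *Cdh2* for TSPCs-56d over TSPCs-1d.

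**Figure D2:**
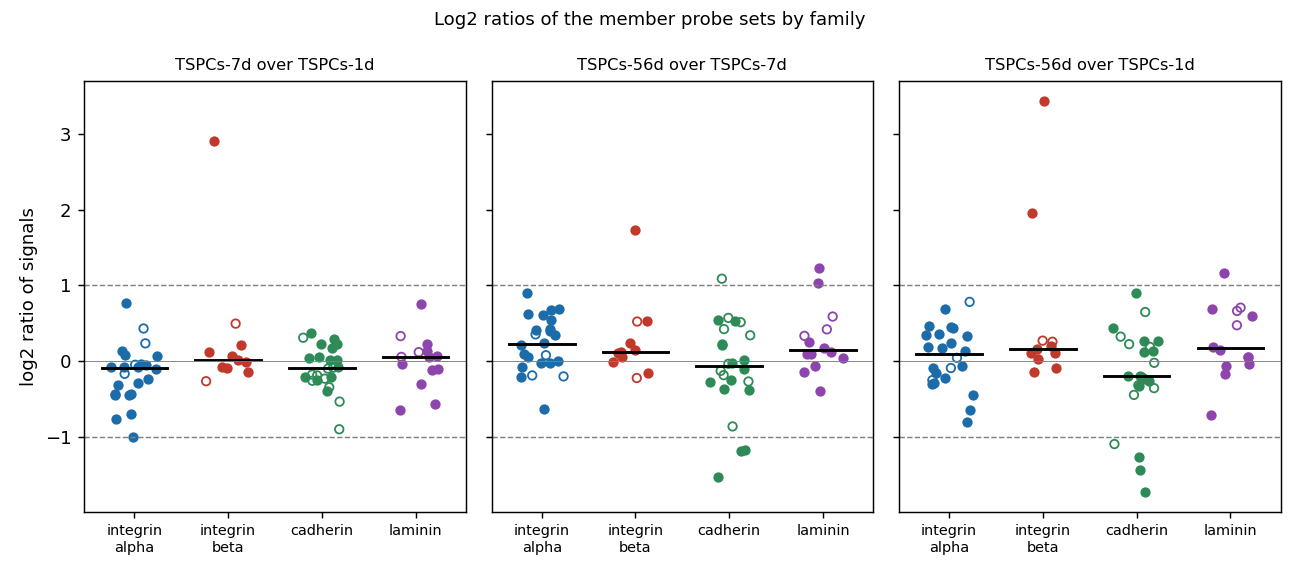
Log2 ratio of signals for each of the 73 member probe sets (1 point each) by family in the 3 comparisons. Open points have a dim signal in at least 1 culture, black bars are family medians and dashed lines mark 2-fold. In TSPCs-7d over TSPCs-1d only *Itgbl1* lies above the upper line, and in TSPCs-56d over TSPCs-1d the cadherin median is -0.20.

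Among the alpha chains, those that bind the RGD motif were higher in TSPCs-56d by modest ratios, though not they alone. All 7 probe sets of *Itga5*, *Itga8*, *Itgav* and *Itga2b* were above a ratio of 1 over TSPCs-7d and over TSPCs-1d, with median log2 ratios of 0.61 and 0.35, beside 0.05 and 0.05 for the whole array, on which 56.3% and 56.7% of probe sets were above 1. None passed 2-fold. *Itga5*, the alpha chain of the main fibronectin receptor, gave 482 in the TSPCs-1d culture, 352 in that of TSPCs-7d and 659 in that of TSPCs-56d, and its ratio of 1.87 for TSPCs-56d over TSPCs-7d lay just under the cutoff. *Itgav*, the alphaV chain that pairs with beta3 and beta5, had 1690.3, 1603 and 2150 in its brightest probe set, 1219.8, 1283 and 1685 in the next and 521, 552 and 840.1 in the third. Its ratios were 1.34, 1.31 and 1.52 for TSPCs-56d over TSPCs-7d. All 3 probe sets had the TSPCs-56d culture as the highest, and none separated TSPCs-7d from TSPCs-1d by more than a ratio of 1.06. *Itga8*, a receptor chain for nephronectin that is common in smooth muscle and fibroblasts, was lowest in TSPCs-7d, with 2534, 1875 and 2981 in one probe set and 1804, 1471 and 2264 in the other. Its ratios of TSPCs-56d over TSPCs-7d were 1.59 and 1.54.

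The chains that bind laminin were highest in TSPCs-1d in every probe set above the dim level. This class too was named after the values were seen, and probe sets of the same gene are not independent. Of 8 probe sets of *Itga3*, *Itga6* and *Itga7*, 6 were above the dim level in every array, and all 6 had a ratio under 1 in TSPCs-7d over TSPCs-1d and in TSPCs-56d over TSPCs-1d, with median log2 ratios of -0.57 and -0.38. On the whole array, 48.9% and 43.3% of probe sets were under 1, with medians of 0.01 and 0.05, and 0 of the 8 passed 2-fold. *Itga6*, the alpha6 chain that is also used as a stem cell marker, had signals of 1754 in the TSPCs-1d culture, 1079 in that of TSPCs-7d and 1122 in that of TSPCs-56d in its brightest probe set. It was 1.62-fold lower in TSPCs-7d and 1.56-fold lower in TSPCs-56d than in TSPCs-1d. Its next probe sets had 218, 109 and 176, and 103, 82.8 and 87.9. *Itga7*, the main laminin receptor chain of muscle, had 548, 322 and 315 and, in its second probe set, 211, 155 and 155. The ratios over TSPCs-1d were 0.59 and 0.74 in TSPCs-7d, and 0.57 and 0.73 in TSPCs-56d. *Itga3* differed little, with 1315, 1248 and 1183, so the medians above reflect *Itga6* and *Itga7*. The pericyte and smooth muscle marker *Mcam* was likewise highest in TSPCs-1d (2182, 929.95 and 927), while the brighter probe set of *Myh11* of smooth muscle (2186, 1671 and 5067) and the actin gene *Acta1* of skeletal muscle (1772, 855 and 5327) were lowest in TSPCs-7d and highest in TSPCs-56d, as were *Itga5*, *Itga8* and *Lamb1*. The weaker probe set of *Myh11* was instead lowest in TSPCs-1d (109, 152 and 198). The smooth muscle and pericyte list of 9 genes summed to 35516 in the TSPCs-1d culture, 28665 in that of TSPCs-7d and 37719 in that of TSPCs-56d. Only *Mcam* and *Myh11* of this list passed 2-fold. *Tagln* (15531, 13601 and 15373) and *Acta2* (9048, 7419 and 9316) made up most of its sum, with ratios of 0.99 and 1.03 for TSPCs-56d over TSPCs-1d. The 8 measured skeletal muscle genes summed to 2243, 1349.96 and 5867. *Acta1* made up most of that sum and of its differences, so that sum does not describe the list as a whole. Of these 8, 2 were dim in all cultures, among them *Myod1*, a defining gene of that lineage, and 4 were dim in no culture, namely *Acta1*, *Ckm* (102, 118 and 127), *Tnnt3* (101, 112 and 136) and *Myh3* (112, 96.2 and 84.2). The part of these cells or genes in the integrin and laminin values was not tested, and fewer cells of a type cannot be told apart from less RNA per cell.

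The collagen-binding chains *Itga1* and *Itga11* stayed within 1.5-fold. *Itga11*, the chief collagen receptor chain of fibroblasts, gave 4639, 5089.98 and 5917 in order of age, the highest again in TSPCs-56d by a ratio of 1.28 over TSPCs-1d. *Itga1* had 2384, 1759.6 and 2237 and was lowest in TSPCs-7d, by a ratio of 0.74 over TSPCs-1d. *Itga9*, which binds tenascin-C among other ligands, had 187, 181 and 213 in its brighter probe set and 64.6, 60.25 and 87.7 in the other. The beta1 chain *Itgb1*, partner of most alpha chains above, differed little between cultures, with 9072, 8999.8 and 9797 in one probe set and 3542, 3699.9 and 4076 in the other. Its ratios lay between 0.99 and 1.15 in the 3 comparisons. *Itgb5*, a partner of alphaV, had 1160.5, 1173 and 1047 in its brightest probe set, and ratios of TSPCs-56d over TSPCs-1d of 0.90, 1.12 and 1.07 over its 3 probe sets. Thus of the member genes for beta chains that pair with alphaV, *Itgb3* alone passed the cutoff among *Itgb1*, *Itgb3*, *Itgb5* and *Itgb6*. *Itgb6* was dim throughout, and *Itgb8* is not among the members.

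Chains of leukocyte and epithelial integrins gave weak signals. *Itgam* of myeloid cells and *Itgb4* and *Itgb6* of epithelia were dim in all cultures. *Itgb2*, the beta chain of leukocytes, had 69.5, 65.3 and 70.4, *Itgb7* had 62.0, 56.0 and 58.1, and *Itgad* 93.8, 88.7 and 76.5. *Itgal* had 43.2, 58.2 and 74.3, and *Itgax* 75.9, 129 and 83.2. These levels were under or near the array's median signal, and no detection call was used. *Itgae*, the alphaE chain of intraepithelial lymphocytes, had 268, 260.5 and 257 and hardly differed. The 13 leukocyte markers summed to 1129.7 in the TSPCs-1d culture, 1120.5 in that of TSPCs-7d and 1364 in that of TSPCs-56d, with 0 past the cutoff. The 9 epithelial markers summed to 605, 694 and 799.5, and the 7 measured Schwann and nerve markers to 967, 1029 and 1595, in order of age, likewise with 0 past the cutoff. *S100b* (530, 535 and 1000) made up most of the last sum and of its rise, so this sum does not describe the list as a whole.

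**Figure D3:**
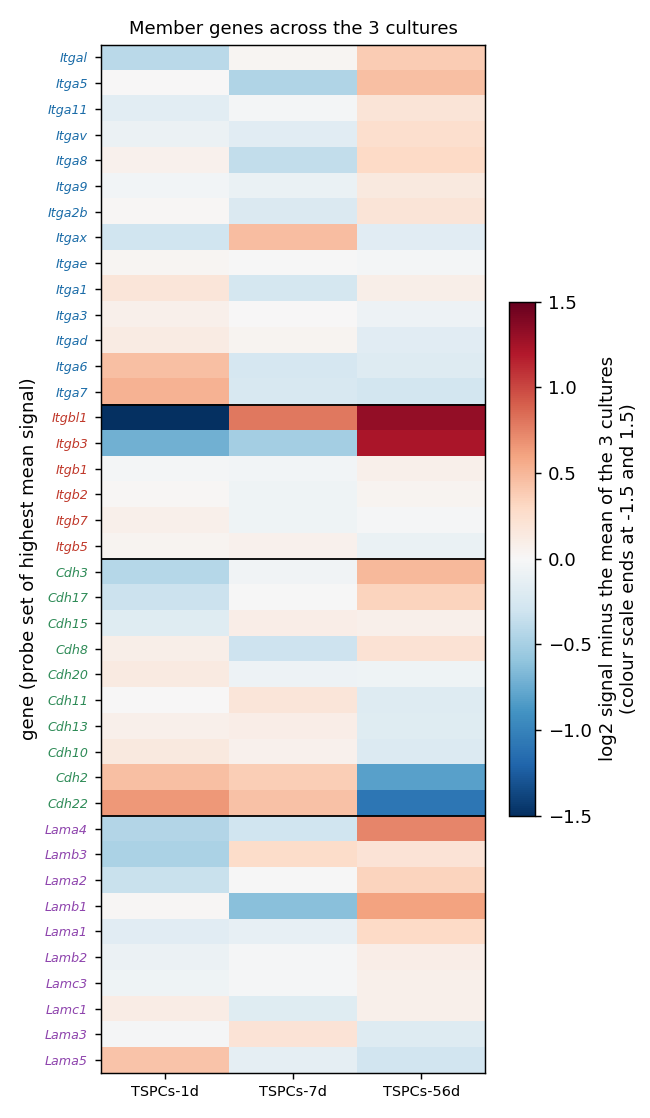
Log2 signal of each member gene minus its mean over the 3 cultures, for 40 genes whose brightest probe set was above the dim level in at least 1 culture (names coloured by family: blue integrin alpha, red integrin beta, green cadherin, purple laminin). Within a family, genes run from the highest to the lowest ratio of TSPCs-56d over TSPCs-1d, and *Itgbl1* lies beyond the colour scale in TSPCs-1d, where its signal was 57.6.

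Beyond *Cdh2* and *Cdh22*, no cadherin passed the cutoff on signals above the dim level. *Cdh11*, cadherin-11 of mesenchymal cells and bone, gave 3534, 3972 and 3075 in order of age in its brightest probe set, a ratio of 0.77 for TSPCs-56d over TSPCs-7d. Its weaker probe sets pointed the other way (331, 340.4 and 399, and 52.1, 61.1 and 70.5), so no direction can be given for it. *Cdh13*, the cadherin held in the membrane by a lipid anchor, was lower in TSPCs-56d in all 3 of its probe sets, by ratios of 0.83, 0.84 and 0.76 over TSPCs-7d. Its brightest probe set had 2534, 2564 and 2118. *Cdh3*, P-cadherin, was the cadherin with the highest ratio of TSPCs-56d over TSPCs-1d. Its signals were 211, 273 and 396, a ratio of 1.87 that lay just under the cutoff. *Cdh15*, M-cadherin of muscle progenitors, had 115, 140.1 and 138. E-cadherin (*Cdh1*), kidney cadherin (*Cdh16*), *Cdh6* and the neural cadherins *Cdh7* and *Cdh12* were dim in all cultures. The neural *Cdh8* and *Cdh20* had signals between 58.5 and 96.3, and *Cdh10* and the intestinal *Cdh17* between 35.1 and 54.9.

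Of the laminin chains, the alpha chains differed in direction. *Lama5*, the alpha5 chain of most adult basement membranes, was highest in TSPCs-1d by its brightest probe set, with 1546, 1046 and 947 in order of age, and ratios of 0.68 and 0.61 over TSPCs-1d in the older cultures. Its other probe sets did not show this (314, 305 and 325, and 121, 111 and 125). *Lama3* of epithelial laminin had 171, 199 and 151. *Lama1* and *Lama2*, the alpha1 chain of the embryo and the alpha2 chain of muscle, were near the dim level, and *Lama2* had 38.6, 48.5 and 61.1. Among the beta and gamma chains, *Lamb2* had 1601, 1671 and 1819 and *Lamc1*, the gamma chain of most laminins, 4914, 3999 and 4777 in its brighter probe set. Both stayed within a ratio of 1.23 in either direction. *Lamb3*, the beta chain of epithelial laminin, had 72.1, 122 and 116, a ratio of 1.69 for TSPCs-7d over TSPCs-1d. *Lamc3* had 140.4, 146 and 156.

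The genes that work beside these receptors mostly lay within 2-fold. Of 28 measured genes of focal adhesion adaptors, 0 passed the cutoff in TSPCs-7d over TSPCs-1d and in TSPCs-56d over TSPCs-1d, and 1 in TSPCs-56d over TSPCs-7d. It was *Tns1*, tensin 1, which ties integrins to actin in mature adhesions, with signals of 1483, 1126 and 2408 and a second probe set of 1345, 1025 and 2119.7. Among 12 catenins and partners of cadherins, 0 passed it in any comparison. Beta-catenin (*Ctnnb1*) had 7621, 7300.1 and 7034. The median log2 ratios of these lists in TSPCs-56d over TSPCs-7d were 0.21 and 0.18, beside 0.05 for all probe sets.

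Of 20 measured basement membrane genes, *Col15a1*, a collagen at the outer face of basement membranes, was higher in each older culture, with 535, 1331 and 3020.3. Its ratios were 2.49, 2.27 and 5.64 for TSPCs-7d over TSPCs-1d, TSPCs-56d over TSPCs-7d and TSPCs-56d over TSPCs-1d. Its second probe set had 574, 1395 and 2778, and its ratio of 1.99 for TSPCs-56d over TSPCs-7d lay just under the cutoff. *Ntn1*, a laminin-related guidance protein, stood 2.78-fold above TSPCs-1d in the TSPCs-56d culture (218, 284 and 607), but its weaker probe sets did not (97.0, 78.9 and 82.1, and 52.4, 58.0 and 66.2). *Col4a5*, a chain of basement membrane collagen, was 2.11-fold lower (2246, 1809.65 and 1063). The other 17 did not pass 2-fold in any comparison. In a single comparison and direction, at most 2 of the 20 passed it, beside 0.989% to 1.8% of all probe sets.

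Of 25 measured integrin ligands, 3 passed 2-fold in some comparison, in either direction. The share of all probe sets was not computed for such a pooled count. In a single comparison and direction, at most 2 ligands passed it, beside 0.989% to 1.8% of all probe sets. *Ccn3*, a matricellular ligand of several integrins, was lowest in TSPCs-7d with 796, 314 and 2020.4, so that TSPCs-56d stood 6.43-fold above TSPCs-7d. *Tnc*, tenascin-C, had 5280.4, 7302.5 and 11185, a ratio of 2.12 for TSPCs-56d over TSPCs-1d. *Edil3*, a secreted RGD protein that binds alphaV integrins, was bright in TSPCs-1d alone, with 144, 34.0 and 11.5, so that TSPCs-7d and TSPCs-56d each stood at least 2.95-fold under TSPCs-1d. Fibronectin (*Fn1*) had 15408, 13677 and 14634. Among 25 other members of the cadherin superfamily, *Pcdh18* followed *Cdh2* and *Cdh22* (1077, 698 and 347) and was 3.10-fold lower in TSPCs-56d than in TSPCs-1d, while *Pcdh20* was 3.32-fold higher (89.5, 109.8 and 297, with 63.3, 69.5 and 205 in its second probe set). *Dsc2* passed the cutoff on dim signals alone.

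**Figure D4:**
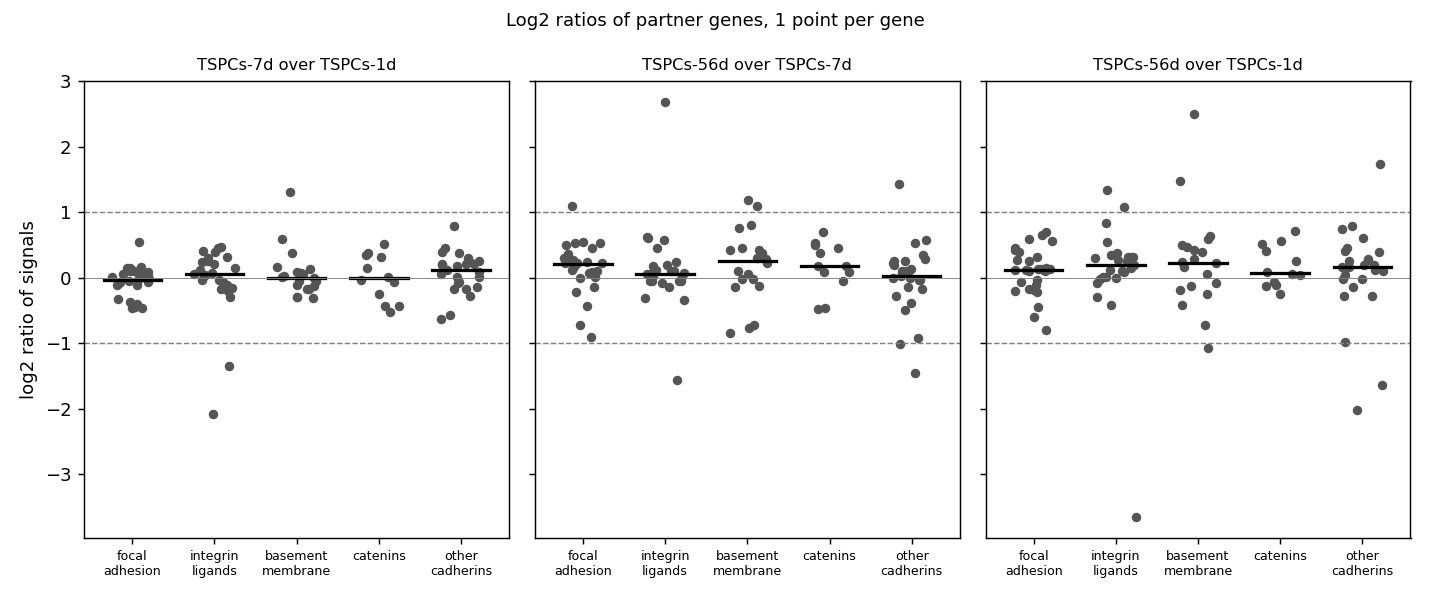
Log2 ratio of signals for genes of 5 partner lists (1 point per gene, the probe set of highest mean signal) in the 3 comparisons, where black bars are medians of the lists and dashed lines stand at 2-fold. *Ccn3* is the highest point in TSPCs-56d over TSPCs-7d (6.43-fold) and *Col15a1* in TSPCs-56d over TSPCs-1d (5.64-fold).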

How the data were processed

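Expression was measured in 3 cultures, 1 array per age. The methods state that the authors used both MAS5 and RMA on the scanned Affymetrix arrays, whereas MAS5 is the only tool in the submitters' processing notes. The values deposited by the authors are on a linear intensity scale and lie between 1 and 19315 for the 31042 probe sets. How both methods were combined is not given in the sources used here, and raw probe intensities and detection calls were not analysed here. The number of arrays limits the precision.

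Signals were used as deposited, without scaling, floor or filter. A ratio was that of a pair of arrays with the later age on top, with a cutoff of 2-fold. Signals under the 25th percentile were called dim, and a fold that involves one is a lower bound ("at least"), computed after raising it to this percentile. Gene symbols came from the platform's table (20826 probe sets with 1 gene, 436 with several and 9780 with none), and the gene IDs of all 73 member probe sets were found in the RefSeq table of GRCr8. Lists used the probe set of highest mean signal per gene. Genes were named by rule: members past 2-fold with a signal above the dim level, the 5 of highest mean signal per family, and partners past 2-fold. Other members were named after their values were seen, as were the ligand classes of the alpha chains. The members and lists were chosen with earlier results of these data known. The alternatives were division by the array median, quantile normalization, floors at the 25th percentile and the median, a pseudocount of 32, cutoffs of 1.5 and 3, leaving out probe sets shared between transcripts, and 1 value per gene. The calculation was tested on simulated data. The software was Python 3.11.15, numpy 2.4.6, pandas 2.3.3 and matplotlib 3.10.9.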

Additional observations from a re-analysis of the deposited data

How the results depend on the processing

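With each array divided by its median or with quantile normalization, 1 member probe set (*Itga6*, ratios of 0.495 and 0.497) was more than 2-fold lower in TSPCs-7d than in TSPCs-1d, where the deposited signals gave 0. A cutoff of 1.5-fold gave 3 higher and 5 lower in TSPCs-7d over TSPCs-1d, 10 and 5 in TSPCs-56d over TSPCs-7d and 11 and 7 in TSPCs-56d over TSPCs-1d. Within 1.5-fold lay 89%, 79.5% and 75.3% of the member probe sets in these comparisons, beside 92.3%, 90.1% and 88.6% of all probe sets. A cutoff of 3-fold kept *Itgbl1* as higher in TSPCs-7d over TSPCs-1d and *Itgb3* as higher in TSPCs-56d over TSPCs-7d, with no member lower in either. In TSPCs-56d over TSPCs-1d it kept *Itgbl1* and *Itgb3* as higher and *Cdh22* as lower. The share of all probe sets past 3-fold was not computed. Floors, the pseudocount, leaving out shared probe sets and 1 value per gene kept each count of member probe sets within 1.5 times. Each median log2 ratio moved by less than the median difference between probe sets of a gene. Under 6 alternatives, *Itgbl1*, *Itgb3*, *Lamb1*, *Cdh2* and *Cdh22* stayed past 2-fold in each comparison in which they had passed it, and *Lama4* did so except for TSPCs-56d over TSPCs-7d with arrays divided by their median (log2 ratio 0.95). With 1 array per age, no replicate could be left out, and faint signals limit what can be read of 9 genes that were dim in all cultures.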
